A study of Mus musculus with 6 samples.

Results

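The 10 genes Cdca7, Cdca7l, Hells, Uhrf1, Dnmt1, Dnmt3a, Dnmt3b, Dnmt3l, Tet1 and Tet3 write, copy and remove methyl marks on cytosine in DNA or help those enzymes reach chromatin. They were picked by name out of 51912 genes in a table of read counts. Cdca7 and Cdca7l were chosen from these same libraries because they had been seen to be lower in Bud31-vKO, so their levels are described here with no test, while the other 8 were added as partners to ask whether these follow. All 10 had enough reads to be among the 15240 genes tested.

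The counts came from spermatogonial stem cells, the cells that maintain the male germ line, of C57BL/6J mice at postnatal day 4. Flow sorting of dissociated testes kept cells with THY1 and without c-KIT, and their RNA was amplified by Smart-Seq2, a method that copies full-length mRNA from very little material. There were 3 libraries from Bud31-vKO mice, in which Bud31 was removed with Cre recombinase and loxP sites, and 3 from wild type mice of the same strain and age. BUD31 is a protein of the spliceosome, and the labels name neither the Cre line nor the deleted exons, nor say whether the libraries are separate animals. The p-values therefore set the difference between the groups against the spread between these libraries only, and that spread may be technical. The count columns carry the letters T and C, which were read as Bud31-vKO and wild type, since the labels do not spell them out, and libraries are numbered as in those columns.

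Methylation of CpG dinucleotides is copied at each round of DNA replication. UHRF1 binds hemimethylated DNA behind the fork and recruits DNMT1, which methylates the new strand, while CDCA7 brings the nucleosome remodeller HELLS to chromatin so that densely packed DNA can be reached. DNMT3A and DNMT3B set new marks with the help of the catalytically inactive DNMT3L, and the TET enzymes oxidise methylcytosine as a step towards its removal. In the mouse male germ line the marks are erased in the fetus and set anew before and around birth.

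Promoters are shown for Cdca7, its paralogue Cdca7l and the maintenance genes Hells, Uhrf1 and Dnmt1, the 5 genes whose levels are set against one another below. They run 5′ to 3′ on the gene's own strand from 250 bases before to 50 bases after a RefSeq start site of GRCm38.p6, and capitals mark words of the E2F motif, which is bound by the factors that switch on genes of DNA replication. The words searched, on both strands, were TTTCCCGC, TTTCGCGC, TTTGCCGC and TTTGGCGC.
Cdca7, chr2:72475969-72476268, plus strand: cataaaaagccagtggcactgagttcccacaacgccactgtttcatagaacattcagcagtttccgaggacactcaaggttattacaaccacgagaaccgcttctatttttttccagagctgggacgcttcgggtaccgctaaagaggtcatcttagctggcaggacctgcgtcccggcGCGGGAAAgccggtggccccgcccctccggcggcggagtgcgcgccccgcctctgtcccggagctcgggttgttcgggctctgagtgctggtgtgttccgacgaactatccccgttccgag
Cdca7l, chr12:117843611-117843910, plus strand: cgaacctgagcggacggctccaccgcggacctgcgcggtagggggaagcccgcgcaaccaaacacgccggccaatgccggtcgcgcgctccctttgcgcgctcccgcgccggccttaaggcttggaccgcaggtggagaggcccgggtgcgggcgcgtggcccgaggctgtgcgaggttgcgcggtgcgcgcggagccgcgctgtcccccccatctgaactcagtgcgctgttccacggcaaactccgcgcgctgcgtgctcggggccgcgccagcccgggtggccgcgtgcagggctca
Hells, chr19:38930740-38931039, plus strand: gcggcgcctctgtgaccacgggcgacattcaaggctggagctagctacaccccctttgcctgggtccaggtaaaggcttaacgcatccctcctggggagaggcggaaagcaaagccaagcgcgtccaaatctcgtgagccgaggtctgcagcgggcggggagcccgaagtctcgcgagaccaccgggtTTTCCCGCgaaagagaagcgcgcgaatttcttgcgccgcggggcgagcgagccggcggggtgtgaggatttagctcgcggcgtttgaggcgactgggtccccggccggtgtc
Uhrf1, chr17:56304063-56304362, plus strand: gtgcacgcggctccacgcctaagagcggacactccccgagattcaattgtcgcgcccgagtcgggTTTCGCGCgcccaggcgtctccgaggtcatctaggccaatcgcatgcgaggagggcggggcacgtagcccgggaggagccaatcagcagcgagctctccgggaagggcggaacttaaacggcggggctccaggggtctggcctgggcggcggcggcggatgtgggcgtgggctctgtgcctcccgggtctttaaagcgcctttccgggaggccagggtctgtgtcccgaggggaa
Dnmt1, chr9:20952574-20952873, minus strand: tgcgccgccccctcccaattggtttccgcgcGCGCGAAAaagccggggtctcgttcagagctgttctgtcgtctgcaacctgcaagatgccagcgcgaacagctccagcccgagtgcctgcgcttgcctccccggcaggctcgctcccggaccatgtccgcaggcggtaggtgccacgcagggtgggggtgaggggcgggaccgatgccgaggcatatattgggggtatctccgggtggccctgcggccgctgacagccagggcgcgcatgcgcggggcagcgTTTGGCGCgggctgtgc

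An E2F word was present in a promoter of 4 of the 10 genes, Cdca7, Hells, Uhrf1 and Dnmt1, and in 2.61% of the 27025 genes with a promoter in the same RefSeq table. In Cdca7 the word begins at position -71 from the start site, in Hells at -62 and in Uhrf1 at -185, in the downstream of its 2 listed promoters. Dnmt1 has 2 words in 1 of its 3 listed promoters, at -219 and 34, and 0.0999% of genes have 2 or more in a promoter. None of the words occurs in the listed window of Cdca7l, nor in those of Dnmt3a, Dnmt3b, Dnmt3l, Tet1 and Tet3. Of 30 G1/S and replication genes listed for comparison, 22 had a promoter in the table and 9 of those had a word. Each of the words contains a CpG, and the 10 genes were richer in CpG than most. Taking the promoter with the most CpG of each gene, their median was 31.5 CpG. It was 8 over all genes with a promoter and 21.5 in the replication genes. The part of base composition in the counts of words was not tested. A match describes the letters only and shows no binding.

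The libraries held 13240704 to 14507038 reads in Bud31-vKO and 13577015 to 18744466 reads in wild type, and reads were found for 12464 to 20286 and 13762 to 22300 genes. The fewest genes were found in Bud31-vKO library 2 and wild type library 3. Levels are in CPM, the read count scaled to the TMM-adjusted size of its library. For Bud31 itself, Bud31-vKO libraries 1 to 3 had 47.2, 67.6 and 80.4 CPM, against 138, 96.8 and 158 CPM in wild type libraries 1 to 3. Its log2 fold change was -1.01 (SE 0.39, edgeR, unadjusted p = 0.0345, adjusted p = 0.9997). An unadjusted p under 0.05 was found in 2.91% of all tested genes. Bud31 overlaps Ptcd1 on the opposite strand, which had 58 to 225 reads in Bud31-vKO and 3 to 726 reads in wild type. Of 16 pan-germ-cell markers 15 were tested and Nanos2 was at or near 0, and the sum of the list was 2179 to 2957 CPM in Bud31-vKO and 3876 to 4816 CPM in wild type, with no overlap. Among them Ddx4, a germ cell RNA helicase, averaged 373 ± 133 CPM in Bud31-vKO and 661 ± 124 CPM in wild type (SD, n = 3 each). Peritubular and stromal cells gave signal too: the sum of their 11 markers, led by the collagens Col1a1 and Col3a1, was 8631 to 14943 CPM in Bud31-vKO and 10741 to 21822 CPM in wild type, above that of the germ cell list in all 6 libraries. The 12 Sertoli cell markers, among them Sox9 and Clu, summed to 138 to 2027 CPM in Bud31-vKO, highest in library 1, and to 92.4 to 519 CPM in wild type. Markers of T and natural killer cells, 10 of 11 tested, summed to 160 to 439 CPM in Bud31-vKO and 13.8 to 59.1 CPM in wild type, with Gimap3 and Cd69 at 0 in every wild type library. Of the 10 tested, 3 were higher in every Bud31-vKO library, where 4.76% of all tested genes were. The highest sum, in Bud31-vKO library 2, held Gimap3 at 217 and Klrd1 at 123 CPM. Sums for the 6 Leydig, 6 endothelial and 8 macrophage markers overlapped between the groups and were at most 212 CPM. How far these other cells contribute to the values below was not tested, and in such bulk libraries fewer cells of a type cannot be told apart from less RNA per cell.

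Cdca7 and Cdca7l separated the genotypes: each of their Bud31-vKO libraries lay under each wild type one. Cdca7, which recruits HELLS and is known as a target of MYC and E2F factors, measured 72.8, 86.6 and 107 CPM in Bud31-vKO libraries 1 to 3, against 203, 341 and 355 CPM in wild type libraries 1 to 3. The means were 89.0 ± 17.4 and 299 ± 83.9 CPM (SD, n = 3 each), and the fitted level was 3.37-fold lower (log2 fold change -1.75, SE 0.35). Wild type library 1 was the lowest of its group but still stood well above all Bud31-vKO libraries. These levels rest on 996 to 1453 reads in Bud31-vKO and 2783 to 6165 reads in wild type.

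Cdca7l, the paralogue of Cdca7 with the same kind of zinc finger domain, followed nearly the same order of libraries. It measured 75.3, 105 and 87.5 CPM in Bud31-vKO libraries and 170, 303 and 335 CPM in wild type libraries 1 to 3. The fitted level was 3.02-fold lower (log2 fold change -1.59, SE 0.36). Since both genes were chosen for this difference, the share of tested genes with every Bud31-vKO library below every wild type library, 6.39%, stands beside them as background and nothing is read from it. Exons of Cdca7l (ENSMUSG00000021175, GRCm38 chr12:117804289-117878706, plus strand) overlap those of Dnah11 on the opposite strand, which had at most 132 reads in any library, while Cdca7l had at least 1030. Cdca7 (ENSMUSG00000055612, GRCm38 chr2:72476159-72486893, plus strand) overlaps no exon of another gene.

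**Figure D1:**
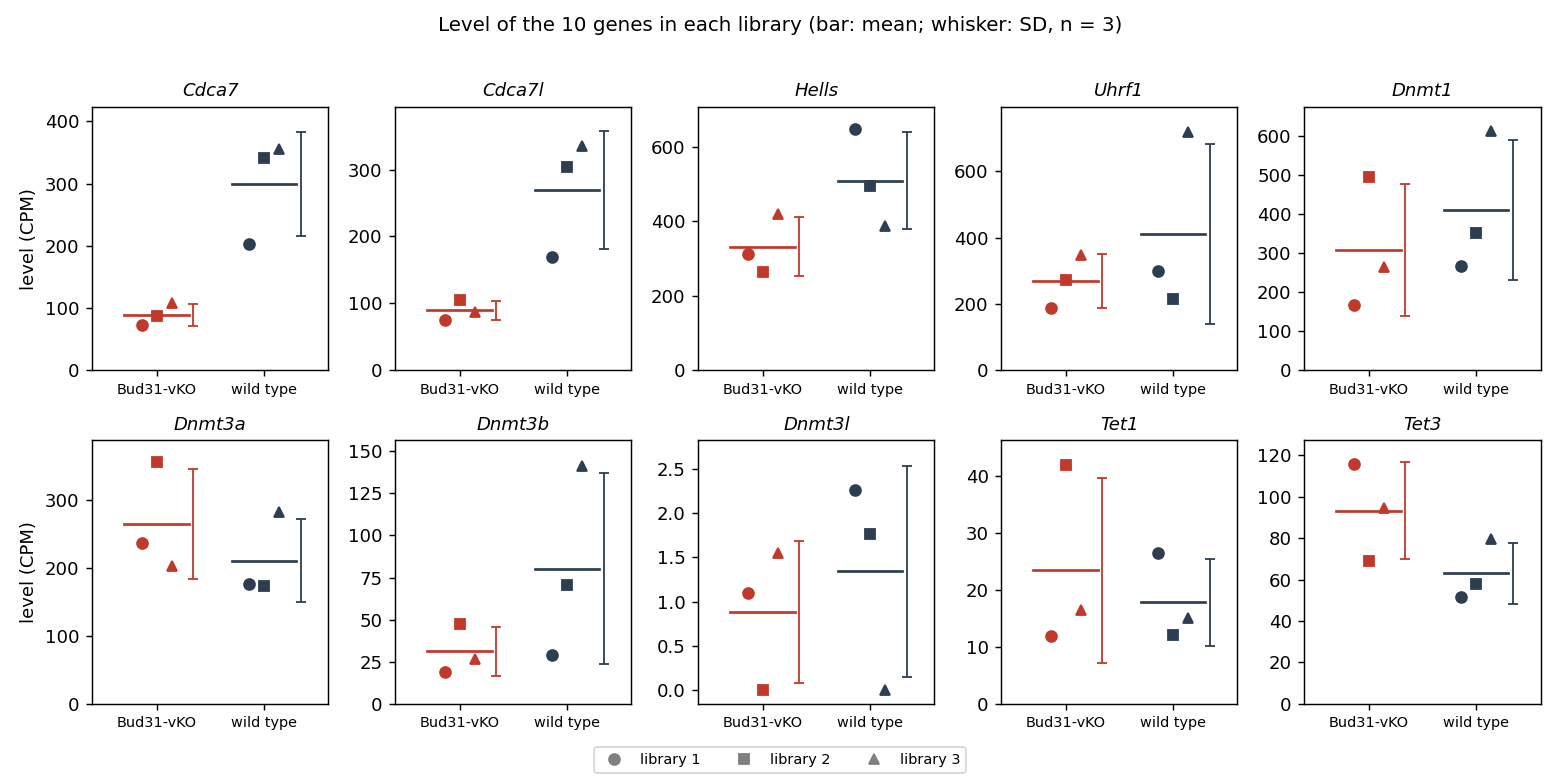
Level of each of the 10 genes in CPM in the 3 Bud31-vKO (red, left) and 3 wild type (dark, right) libraries; symbols mark the library number, bars the mean and whiskers the SD. Cdca7 and Cdca7l are the only panels of the 10 in which the groups do not overlap, and the Uhrf1 and Dnmt3b panels show wild type library 3 far above the other wild type libraries.

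None of the 8 partners passed the test. With edgeR's quasi-likelihood test, adjusted by Benjamini-Hochberg over all 15240 genes, 0 of 8 were called and every adjusted p was 0.9997, where 0% of all genes were called in either direction. At an unadjusted p under 0.05 there were 0 of 8 partners and 2.91% of all genes, 1.82% lower and 1.08% higher in Bud31-vKO. DESeq2 and limma-voom also called 0 of the 8. Of all genes DESeq2 called 0.314%, 0.2% in the lower direction. In 5 of the 8 the log2 fold change was below 0, with a median of -0.51, while over all tested genes 48.9% were below 0 and the median was 0.022. Without wild type library 3, 3 of the 8 were below 0 and their median was 0.054. Leaving out library 1 of Bud31-vKO gave -0.24, and leaving out library 1 of wild type -0.21. Libraries of the same genotype differed widely, with a common biological coefficient of variation of 119%.

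Hells (GRCm38 chr19:38930915-38971051, plus strand), the remodeller that CDCA7 recruits, was lower in Bud31-vKO on average but did not pass the test. Its level was 313, 263 and 420 CPM in Bud31-vKO libraries 1 to 3, against 647, 493 and 387 CPM in wild type libraries 1 to 3. Only wild type library 3 lay within the range of the Bud31-vKO libraries. The means were 332 ± 80.4 and 509 ± 130 CPM (SD, n = 3 each), and the log2 fold change was -0.62, with a 95% interval from -1.36 to 0.12 (edgeR, unadjusted p = 0.0905).

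Uhrf1 (GRCm38 chr17:56303321-56323486, plus strand), the reader of hemimethylated DNA, depended on a single library. It measured 186, 272 and 348 CPM in Bud31-vKO libraries 1 to 3, against 298, 215 and 720 CPM in wild type libraries 1 to 3. Without wild type library 3 the log2 fold change was 0.089, and with it -0.61 (SE 0.49, edgeR, unadjusted p = 0.248). The 2 other wild type libraries lay inside the range of the Bud31-vKO libraries.

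Dnmt1 (GRCm38 chr9:20907209-20959888, minus strand), the maintenance methyltransferase, overlapped widely between the groups. The values were 166, 496 and 264 CPM in Bud31-vKO libraries 1 to 3 and 267, 353 and 613 CPM in wild type libraries 1 to 3. Bud31-vKO library 2 and wild type library 3, the pair with the fewest genes detected, were the highest of their groups. The log2 fold change was -0.41 (SE 0.48, edgeR, unadjusted p = 0.417). Leaving out wild type library 3 gave 0.020, and leaving out Bud31-vKO library 1 or 2 gave -0.086 or -0.93.

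The de novo enzymes differed in the sign of their fold changes. Dnmt3a (GRCm38 chr12:3806007-3914443, plus strand) had 237, 356 and 203 CPM in Bud31-vKO libraries 1 to 3, against 177, 174 and 282 CPM in wild type libraries 1 to 3, a log2 fold change of 0.33 with a 95% interval from -0.49 to 1.15 (edgeR, unadjusted p = 0.380). Wild type library 3 lay above Bud31-vKO libraries 1 and 3. Without Bud31-vKO library 2 the value was 0.064, and without wild type library 3 it was 0.62. Reads on Dnmt3aos, which overlaps it on the opposite strand, numbered at most 2.

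Dnmt3b (GRCm38 chr2:153649450-153687730, plus strand) had the lowest fold change of the partners and wide spread. It measured 19.01, 47.5 and 26.7 CPM in Bud31-vKO libraries 1 to 3, against 29.2, 70.5 and 141 CPM in wild type libraries 1 to 3. Wild type library 1 lay below Bud31-vKO library 2, so the groups overlapped. The log2 fold change was -1.37 with a 95% interval from -3.00 to 0.26 (edgeR, unadjusted p = 0.0876), and leaving out wild type library 3 or Bud31-vKO library 2 gave -0.66 or -1.81. Dnmt3l (GRCm38 chr10:78041947-78063622, plus strand) was barely detected, with 15, 0 and 21 reads in Bud31-vKO libraries 1 to 3 and 31, 32 and 0 reads in wild type libraries 1 to 3. Both zeros fall in the pair of libraries with the fewest genes detected, and 3 reads, the limit that a count of 0 allows by counting error alone, equal 0.214 and 0.175 CPM there. Its interval, from -5.81 to 4.61 on the log2 scale (edgeR, unadjusted p = 0.797), gives no direction. Its exons overlap those of Aire on the opposite strand, which had 6 reads in wild type library 1 and 0 in the others.

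Both TET genes had fold changes above 0, and neither passed the test. Tet3 (GRCm38 chr6:83362373-83459084, minus strand) measured 116, 69.1 and 94.8 CPM in Bud31-vKO libraries 1 to 3, against 51.7, 57.7 and 79.8 CPM in wild type libraries 1 to 3. Bud31-vKO library 2 lay below wild type library 3, and the other Bud31-vKO libraries were above all wild type libraries. The log2 fold change was 0.56 with a 95% interval from -0.40 to 1.53 (edgeR, unadjusted p = 0.213). Tet1 (GRCm38 chr10:62804570-62908996, minus strand) had 11.91, 41.8 and 16.3 CPM in Bud31-vKO libraries 1 to 3, against 26.4, 11.99 and 14.96 CPM in wild type libraries 1 to 3. Bud31-vKO library 2 was the highest and the other libraries intermingled. Without that library the log2 fold change of Tet1 was -0.32, against 0.39 with it (edgeR, unadjusted p = 0.683).

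**Figure D2:**
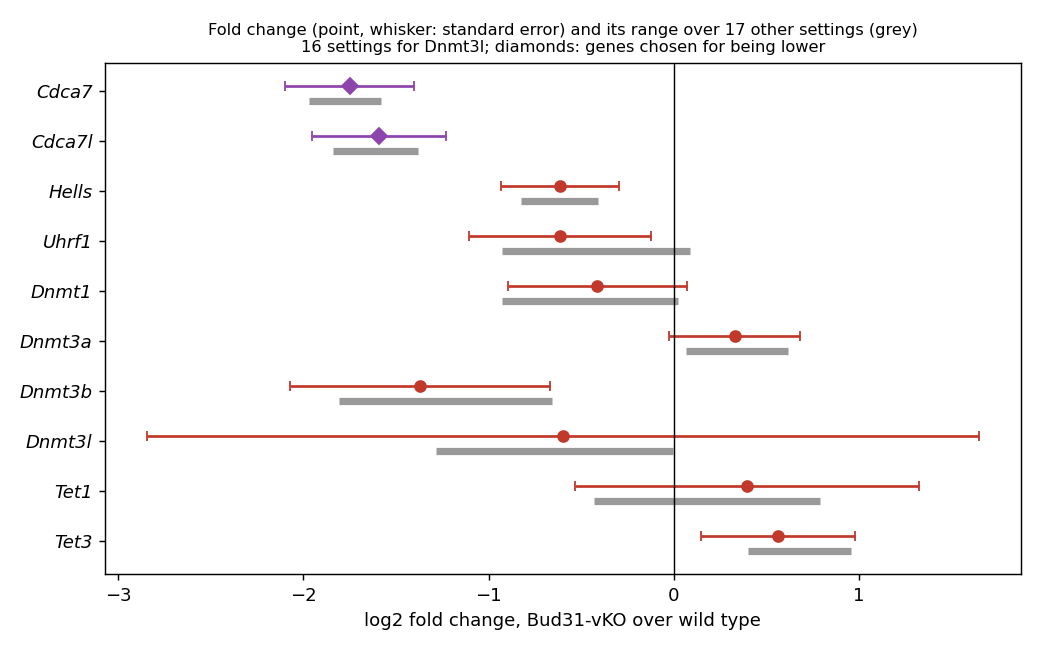
Log2 fold change of each gene, Bud31-vKO over wild type, with its standard error (points and whiskers), and below it in grey the range over the other settings and left-out libraries; diamonds are Cdca7 and Cdca7l, chosen for being lower. Of the partners, the grey ranges of Uhrf1, Dnmt1 and Tet1 cross 0, and those of Hells (-0.83 to -0.41), Dnmt3b (-1.81 to -0.66), Tet3 (0.40 to 0.96), Dnmt3a (0.064 to 0.62) and Dnmt3l (-1.28 to -0.0068) do not.

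Set against marker genes of the same library, the means of Hells, Uhrf1 and Dnmt1 were higher in Bud31-vKO, with overlapping groups where the markers were summed. The summed germ cell markers were themselves lower in every Bud31-vKO library, which raises the ratio of any unchanged gene. The mean log2 CPM of Hells, Uhrf1 and Dnmt1 themselves was lower in Bud31-vKO, with differences of -0.61, -0.46 and -0.47. The ratios therefore cannot tell a change of these genes from one of the markers. The level of Hells over the summed pan-germ-cell markers was -2.80, -3.31 and -2.81 as a log2 ratio in Bud31-vKO libraries 1 to 3, against -2.90, -3.18 and -3.32 in wild type libraries 1 to 3. Bud31-vKO libraries 1 and 3 lay above all wild type libraries and library 2 lay within their range, and the means differed by 0.16 (exact permutation test over libraries, two-sided, p = 0.5). For Uhrf1 the difference of means was 0.31 and for Dnmt1 0.30 (p = 0.6 each by the same exact permutation test). With 3 libraries against 3 that test cannot go below 0.1.

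Cdca7 and Cdca7l were chosen for being lower in these same libraries, so their ratios to marker genes are a description only. The ratio of Cdca7 to the germ cell markers was lower in all Bud31-vKO libraries, at -4.90, -4.91 and -4.78, against -4.57, -3.72 and -3.45 in wild type. The difference of means was -0.95, compared with -1.72 for the mean log2 CPM of Cdca7 itself. For Cdca7l the difference was -0.77 and the groups overlapped. When the mean log2 CPM of the markers took the place of their sum, Cdca7 overlapped between the groups too, with a difference of -0.36, and the difference for Cdca7l was -0.18. The ratio of Cdca7 was then -0.060, 2.10 and 0.35 in Bud31-vKO libraries 1 to 3, against 0.30, 1.29 and 1.88 in wild type libraries 1 to 3. In Bud31-vKO library 2, which had the fewest genes detected, the markers Elavl2, Rnf17 and Utf1 were at 0 CPM, and in no other library. By the mean of log2 CPM Hells was higher in all Bud31-vKO libraries, by 0.75 (exact permutation p = 0.1), compared with -0.61 for the mean log2 CPM of Hells itself. Uhrf1 and Dnmt1 differed by 0.90 and 0.89, with overlapping groups (exact permutation p = 0.5 and 0.6). Library 2 was the highest Bud31-vKO library for each. Hells was at 2.04, 3.70 and 2.31 in Bud31-vKO libraries 1 to 3, with a wild type mean of 1.93. Uhrf1 was at 1.29, 3.75 and 2.04 and Dnmt1 at 1.13, 4.61 and 1.64, with wild type means of 1.46 and 1.57. How far the markers at 0 in library 2 set these differences was not tested.

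Relative to the summed genes of G1/S and DNA replication, Cdca7, chosen for being lower, gave -5.14, -5.93 and -5.31 in Bud31-vKO libraries 1 to 3, against -4.65, -4.23 and -4.77 in wild type libraries 1 to 3, with no overlap. The difference of means was -0.91 for Cdca7 and -0.73 for Cdca7l, and 0.20, 0.35 and 0.34 for Hells, Uhrf1 and Dnmt1 (exact permutation p = 0.8, 0.6 and 0.2). Dnmt3a and Tet3 were above all wild type libraries by this ratio, with differences of 1.14 and 1.37 (exact permutation p = 0.1 each, the smallest possible). The summed replication genes themselves averaged 4036 CPM in Bud31-vKO and 7049 CPM in wild type, which raises the ratio of any unchanged gene. This test therefore cannot tell a change of the gene from one of the replication genes. The mean log2 CPM of Dnmt3a and Tet3 themselves differed by 0.32 and 0.56, and their CPM overlapped between the groups. Taken directly against Hells, the log2 ratio of Cdca7 was -2.10, -1.60 and -1.97 in Bud31-vKO libraries 1 to 3, and -1.67, -0.53 and -0.13 in wild type libraries 1 to 3. Wild type library 1 overlapped the Bud31-vKO libraries here. With the mean log2 CPM of the replication genes in place of their sum, Cdca7 did not overlap, with a difference of -0.57, while Cdca7l overlapped, with -0.39. Uhrf1 and Dnmt1 were then above all wild type libraries, by 0.70 and 0.69 (exact permutation p = 0.1 each), and Hells differed by 0.55 with overlap (exact permutation p = 0.4). The mean log2 CPM of Uhrf1, Dnmt1 and Hells themselves differed by -0.46, -0.47 and -0.61.

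**Figure D3:**
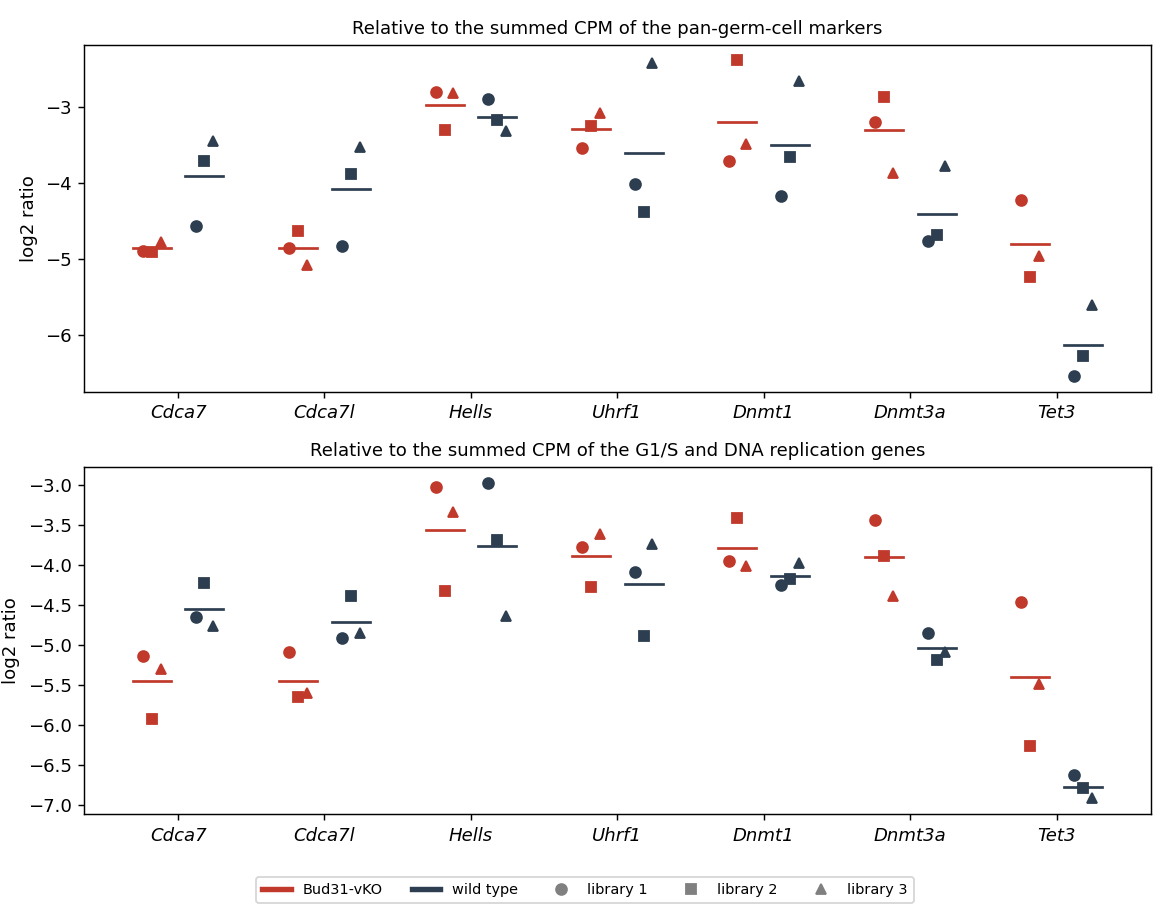
Log2 ratio of 7 of the genes to the summed CPM of 16 pan-germ-cell markers (top) and of 30 G1/S and replication genes (bottom) within each library, Bud31-vKO in red on the left and wild type dark on the right of each pair; lines are means. Cdca7, chosen for being lower, is lower in Bud31-vKO in both panels, Hells overlaps in both, and Tet3 is higher in both. Both sums themselves averaged lower in Bud31-vKO, which raises the ratios there.

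Levels were compared between genes per kilobase of the longest transcript. On this scale Cdca7 stood at 36.7 ± 7.19 CPM per kilobase in Bud31-vKO and 124 ± 34.6 in wild type (SD, n = 3 each), a difference that the choice of the gene contains. In Bud31-vKO the order ran Uhrf1 at 74.9 ± 22.5, Hells at 56.6 ± 13.7, Dnmt1 at 52.6 ± 28.9, Cdca7, Cdca7l at 30.2 ± 5.04 and Dnmt3a at 27.4 ± 8.33 CPM per kilobase, with no neighbours apart by their ranges until the step to Tet3 at 8.55 ± 2.15. In wild type Cdca7 was listed first, with its range overlapping that of the next gene, followed by Uhrf1 at 115 ± 75.5, Cdca7l at 91.0 ± 29.7, Hells at 86.7 ± 22.2 and Dnmt1 at 70.0 ± 30.7, and the ranges first parted between Dnmt1 and Dnmt3a at 21.8 ± 6.35 CPM per kilobase. Dnmt3b stood at 7.19 ± 3.41 in Bud31-vKO and 18.6 ± 13.1 in wild type. Tet1 and Dnmt3l were last in both genotypes, at 1.63 and 0.48 CPM per kilobase in Bud31-vKO and 1.24 and 0.74 in wild type.

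Of the 4478 genes averaging 50 CPM or more, the 5 whose log2 CPM was most like that of Cdca7 across the 6 libraries were Ado, Cdk2, Pmm1, Washc5 and Cdca7l. Ado encodes a thiol dioxygenase, CDK2 is a kinase of S phase entry, PMM1 is a phosphomannomutase and WASHC5 a subunit of an endosomal complex. Pearson's r was 0.99 for Ado and Cdk2 and 0.98 for the others, and Spearman's rho was at least 0.89. The 6 points share the genotype contrast, since 3 are Bud31-vKO and 3 wild type, so these values are a description only. Cdca7l, chosen like Cdca7 for being lower in Bud31-vKO, ranked 5 of 4478, a place that this choice favours. Dnmt3b ranked 318, Hells 793, Dnmt1 1013, Uhrf1 1134, Dnmt3a 3358 and Tet3 3902. Tet1 and Dnmt3l were under 50 CPM.

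The wider pathway was mixed. By edgeR 0 members of any list below passed over all genes, in either direction. Of 13 partners of maintenance methylation, 7 were below 0 in log2 fold change (median -0.046). With 1 library left out this median lay between -0.11 and 0.11. Lowest was Lig1, the ligase that seals replicated DNA and brings UHRF1 to it, with 86.1, 65.7 and 227 CPM in Bud31-vKO libraries 1 to 3, against 238, 354 and 352 CPM in wild type libraries 1 to 3 (log2 fold change -1.32, SE 0.50). The histone methyltransferase Setdb1 averaged 95.7 ± 38.5 CPM in Bud31-vKO and 208 ± 34.5 CPM in wild type (SD, n = 3 each), and Pclaf, a clamp-associated factor that UHRF1 ubiquitinates and DNMT1 binds, 164 ± 53.7 and 316 ± 143 CPM. Groups did not overlap for Lig1, Setdb1 and Trim28, 3 of 13, all lower in Bud31-vKO, where 6.39% of all tested genes were lower in every such library.

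Of 12 other writers and guides 10 were tested, 6 of them below 0 with a median of -0.52, and Dppa3 had no read in any library. Leaving out library 2 of Bud31-vKO gave a median of -0.18, and leaving out library 3 of wild type -0.15. Morc1, needed to silence transposons in the male germ line, averaged 117 ± 39.5 CPM in Bud31-vKO and 264 ± 118 CPM in wild type, the histone demethylase Kdm1b 17.3 ± 7.83 and 49.8 ± 31.7 CPM, and its relative Kdm1a 56.1 ± 43.9 and 130 ± 41.3 CPM (SD, n = 3 each). Among 15 genes of demethylation and base excision repair, 10 were below 0, with a median of -0.35, which was -0.60 without wild type library 1 and -0.078 without wild type library 2. Parp1, a sensor of DNA breaks, averaged 212 ± 57.2 CPM in Bud31-vKO and 387 ± 82.4 CPM in wild type, Gadd45b, a stress gene, 362 ± 171 and 161 ± 66.1 CPM, and Idh2, a mitochondrial dehydrogenase, 19.9 ± 7.83 and 47.4 ± 34.7 CPM. In this list 1 of 15, Parp1, was lower in every Bud31-vKO library, where 6.39% of all tested genes were, and 2 of 15, Gadd45b and Tet2, were higher in each, where 4.76% of all tested genes were.

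The 6 methyl-CpG readers had a median of 0.40 and 1 below 0, Mbd4, which is also a repair glycosylase, at -1.32. Their median ranged between 0.26 and 1.02 with 1 library left out. It was 0.067 in the 4 libraries richest in detected genes and 0.14 with a replicate block, with 3 of 6 below 0 in both. Zbtb38, a zinc finger protein, had a log2 fold change of 0.95. Mbd4 is also counted in the repair list. Of the S-adenosylmethionine cycle, which supplies the methyl group, 11 of 12 genes were tested and 8 were below 0, with a median of -0.50, or -0.19 without wild type library 2. Mat2a, which makes S-adenosylmethionine, had 28.8, 29.3 and 31.6 CPM in Bud31-vKO libraries 1 to 3, against 54.0, 48.2 and 53.2 CPM in wild type libraries 1 to 3. It was the 1 of 11 whose groups did not overlap, near the 6.39% over all tested genes, and its log2 fold change was -0.79 (SE 0.53, edgeR, unadjusted p = 0.177). Shmt1 and Ahcyl2 had log2 fold changes of -0.48 and -0.92.

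Replication and G1/S genes leaned one way. Of 30 listed 29 were tested, all 29 of them below 0 in log2 fold change (median -0.81), and 8 of 29 were lower in every Bud31-vKO library, where 6.39% of all tested genes were. By edgeR 0 of them were called, and 4 had an unadjusted p under 0.05 in that direction, where 1.82% of all genes did. Tyms, which makes thymidylate, averaged 43.1 ± 2.29 CPM in Bud31-vKO and 122 ± 53.4 CPM in wild type, Rrm1, of ribonucleotide reductase, 238 ± 88.1 and 677 ± 412 CPM, and the helicase subunit Mcm4 63.4 ± 32.5 and 203 ± 156 CPM (SD, n = 3 each). The summed level of the list overlapped between the groups, at 2564 to 5290 CPM in Bud31-vKO and 5100 to 9655 CPM in wild type. With only the 4 libraries richest in detected genes, 26 of 29 were below 0. The median was -0.51 without Bud31-vKO library 1 or without wild type library 3.

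Germline genes whose promoters are methylated in somatic tissue were below 0 in 13 of 13, with a median of -0.51. Without wild type library 1 these were 11 of 13, with a median of -0.42. They were 12 of 13 without Bud31-vKO library 2, and also in the 4 libraries richest in detected genes. This list and that of the pan-germ-cell markers share Mael, Dazl, Tex101 and Tdrd1. DESeq2 called 1 gene in each list, where it called 0.314% of all genes. Since the lists share genes, the same gene may be counted in both. Slc25a31, a nucleotide carrier of germ cells, measured 609, 610 and 610 CPM in Bud31-vKO libraries 1 to 3, against 1125, 1016 and 901 CPM in wild type libraries 1 to 3. Mael averaged 156 ± 42.5 CPM in Bud31-vKO and 493 ± 165 CPM in wild type, and the testis bromodomain gene Brdt 28.5 ± 13.8 and 81.7 ± 69.0 CPM (SD, n = 3 each). Of the 15 pan-germ-cell markers tested, 15 were below 0, with a median of -0.90. Leaving out wild type library 1 gave 14 of 15 and a median of -0.51. The direction of these genes went with the lower sum of germ cell markers given above, and its part in the values was not tested.

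**Figure D4:**
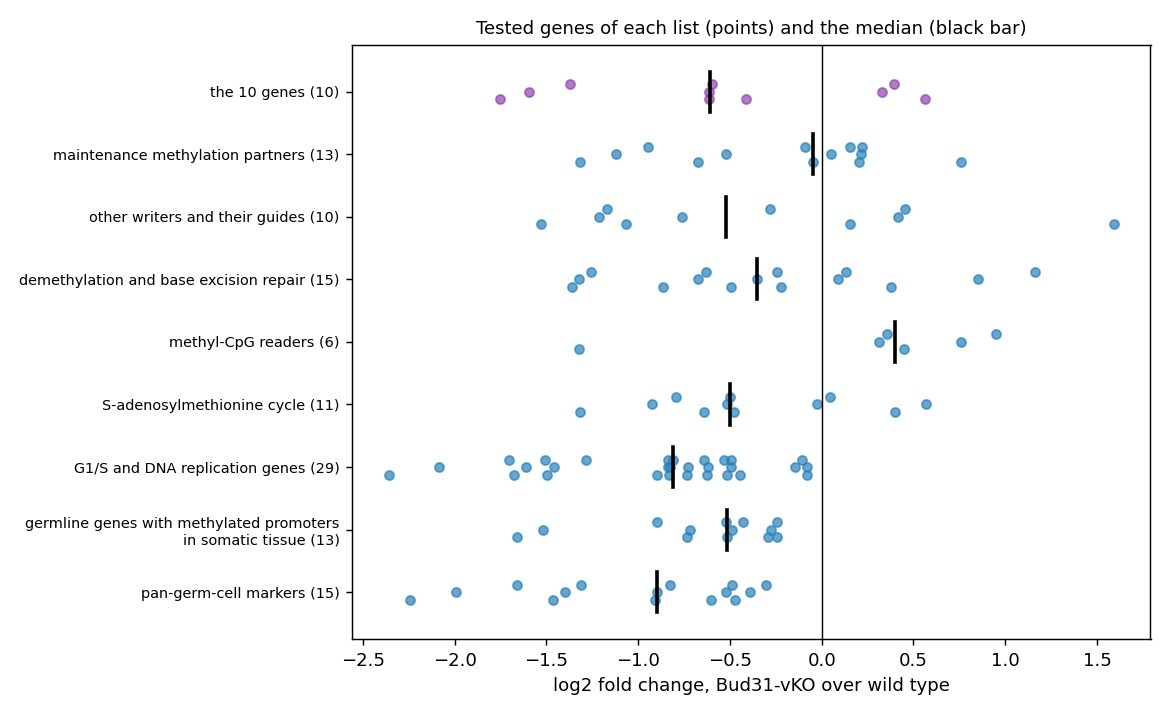
Log2 fold change, Bud31-vKO over wild type, of the tested genes of each list (points, number in brackets) and their median (black bar), with the 10 genes on top. All 29 replication genes and all 15 pan-germ-cell markers lie left of 0, whereas the maintenance partners are spread around a median of -0.046 and the methyl-CpG readers around 0.40.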

How the data were processed

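RNA was measured in 3 Bud31-vKO and 3 wild type libraries. The authors deposited raw counts, whole numbers of reads for each Ensembl gene, whose totals differ between libraries. The genome build was mm10 and reads were written with bcl2fastq, per the submitters' processing notes; for aligner, counting tool, annotation and strand, the sources used here give nothing. Symbols were found for 51633 of 51912 identifiers (99.5%) with GENCODE M21 on GRCm38, which also gave coordinates and lengths.

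In edgeR 4.0.16, filterByExpr (minimum count 10, minimum total 15) chose the genes, TMM scaled the libraries, and the quasi-likelihood test of edgeR, with no covariate, set Bud31-vKO against wild type, p-values being adjusted by Benjamini-Hochberg over 15240 genes at 0.05. The interval of a fold change is at 95%. A prior count of 2 was used for log2 CPM. Limits for counts of 0 (3 reads) cover counting error only. Other scalings (RLE, upper quartile, library size) and filters were tried, as were DESeq2 1.42.0, voom of limma 3.58.1, robust dispersion, a block by library number, a table without ribosomal RNA, mitochondrial and haemoglobin genes, the 4 libraries richest in detected genes, and each library left out. Analyses ran in R 4.3.3 and Python 3.11.15. The edgeR, DESeq2 and voom fits were also run on simulated counts with known fold changes. A pass was required only of edgeR at a dispersion of 0.05. That spread is smaller than in these libraries, whose common biological coefficient of variation was 119%, so the pass does not speak for power here.

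The genes and lists were chosen with earlier results of these data known. The rule named the 10 genes, Bud31, the 3 genes of each pathway list with the smallest unadjusted p, and the 5 genes most like Cdca7; not every gene it named is reported here. Genes named beyond it were picked after their values were seen: Dnah11, Dnmt3aos, Aire and Ptcd1 as antisense neighbours, Trim28, Tet2, Dppa3, and the cell type markers.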

Additional observations from a re-analysis of the deposited data

How the results depend on the processing

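Across 17 other settings the log2 fold changes of Cdca7, Cdca7l, Hells, Dnmt3a, Dnmt3b and Tet3 kept their sign, as did that of Dnmt3l in the 16 that tested it, and 0 of the 8 partners passed the test in any. With the 4 libraries richest in detected genes, Uhrf1 turned to 0.069 and Tet1 to -0.43. With 1 library left out, Uhrf1 ranged between -0.93 and 0.089, Dnmt1 between -0.93 and 0.020 and Tet1 between -0.32 and 0.79. The positive values of Uhrf1 and Dnmt1 came without wild type library 3, and the negative one of Tet1 without Bud31-vKO library 2. Fewer libraries entered these fits. Relative to the germ cell markers, Dnmt3b turned to 0.17 with the mean of log2 CPM in place of the sum, against -0.43. By the mean it was at -1.99, 1.23 and -1.66 in Bud31-vKO libraries 1 to 3, and at -2.49, -0.98 and 0.55 in wild type libraries 1 to 3. The cause was not tested.

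Over all genes edgeR called 0 higher and 0 lower, with 443 at an unadjusted p under 0.05. DESeq2 called 17 higher and 30 lower, and without a filter on low counts edgeR called 5 and 2. limma-voom called 0. Leaving out 1 library gave 0 to 0 calls in each direction. A replicate block for the library number also gave 0 calls in either direction, with 412 at an unadjusted p under 0.05. The labels do not say whether equal numbers pair libraries. Deviations of same-numbered libraries 1 to 3 correlated at 0.19, 0.041 and -0.076, and those of unlike-numbered libraries between -0.21 and 0.11. With 3 libraries per group these values cannot settle whether libraries are paired. With the union of exons as length, 6 of the 10 genes kept their place in the order in wild type and 8 in Bud31-vKO. Uhrf1 then came before Cdca7 and Dnmt3b before Dnmt3a in wild type, and Dnmt3b before Tet3 in Bud31-vKO. By this length the ranges of Cdca7l and Dnmt3a were apart in Bud31-vKO. Of the 5 genes most like Cdca7, 4 were the same at a mean of at least 20 CPM. Intervals of the partners leave room for both signs, widest for Dnmt3l and Tet1, which had the fewest reads.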
